A study of Homo sapiens with 20 samples.

Results

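The cytosolic ribosomal protein genes were described in hTCEpi, a corneal epithelial cell line of human origin immortalized with telomerase. They were chosen by name: each gene identifier was taken once, had to be annotated as protein coding, and had to carry a symbol of the RPL, RPS, RPLP or RPSA series. This gave 77 genes of 60671 gene identifiers in the count table, 46 of the large ribosomal subunit and 31 of the small subunit. All 77 passed the filter on low counts, as did 22938 genes in all.

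Cells received 0.05, 0.5 or 5 µg/ml of recombinant human SPARC, a matricellular protein of extracellular matrix, or none (control), and were harvested after 24 h, with 5 libraries in each of the 4 groups. The groups are called control, SPARC 0.05, SPARC 0.5 and SPARC 5 here. All came from 1 line, and no label says whether the libraries of a group were separate cultures, so the p-values measure only the spread between these libraries. RNA was depleted of ribosomal RNA with RNase H and primed with random hexamers, and 31955358 to 50112286 read counts were assigned to genes per library. The epithelial genes KRT5 (10900 to 11800 counts-per-million, CPM), TP63 (268 to 285 CPM) and CDH1 (92.3 to 104 CPM) were expressed in every library, whereas the corneal keratin KRT3 was at 1.29 to 2.07 CPM and KRT12 had 0 to 4 counts. CPM here were divided by edgeR's TMM factors (trimmed mean of M values), which hold the bulk of genes level between libraries.

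Ribosomal proteins fold onto ribosomal RNA in the nucleolus to form the small subunit, which reads the messenger RNA, and the large subunit, which joins the amino acids. Nearly all are needed in equal numbers of copies, and in growing cells their messenger RNAs are among the most abundant. Vertebrate ribosomal protein messages typically begin with a C followed by a run of pyrimidines, the terminal oligopyrimidine (TOP) motif, through which the mTOR pathway controls their translation. That control acts on how many ribosomes a message carries, which counts of total RNA do not measure.

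The start sequences are shown because the run is a feature that most of these genes share; the 5 printed with it are members that passed at least 1 test below. RefSeq start sites (GRCh38.p14) were found for 62 of the 77 genes. A run was scored on the gene's own strand as a C at the annotated start followed by at least 4 pyrimidines. Each line gives 35 bases before the start and 15 from it, 5′ to 3′, and capitals mark the run.
RPL22, chr1:6199581-6199630, minus strand: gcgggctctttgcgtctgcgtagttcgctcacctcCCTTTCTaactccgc
RPL36A, chrX:101390976-101391025, plus strand: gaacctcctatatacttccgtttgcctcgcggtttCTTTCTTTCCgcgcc
RPL10, chrX:154398342-154398391, plus strand: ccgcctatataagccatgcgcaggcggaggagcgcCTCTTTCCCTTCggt
RPLP2, chr11:809932-809981, plus strand: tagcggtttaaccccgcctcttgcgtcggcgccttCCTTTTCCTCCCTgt
RPS25, chr11:119018329-119018378, minus strand: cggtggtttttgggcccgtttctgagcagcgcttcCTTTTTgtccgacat
RPS4X, chrX:72277234-72277283, minus strand: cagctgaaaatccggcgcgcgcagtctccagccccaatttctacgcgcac
RPS29, chr14:49598696-49598745, minus strand: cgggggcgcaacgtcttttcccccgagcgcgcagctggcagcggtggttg

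The run was 7 bases long in RPL22, 10 in RPL36A, 12 in RPL10, 13 in RPLP2 and 6 in RPS25. RPS4X and RPS29 are shown as members whose listed start holds no such run. Of the members with an entry, 46 of 62 (74.2%) had at least 1 start with the run, against 5.14% of 27305 genes. Counted by start, 46 of 77 member starts (59.7%) had it, against 4.07% of all 35116 starts and 6 of 85 starts (7.06%) of mitochondrial ribosomal protein genes. A listed start is the annotation's, and the start used in these cells was not measured.

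Levels were compared between genes as CPM per kilobase of the annotated transcript, averaged over the 20 libraries. RPS2, a small-subunit protein at the messenger RNA entry channel, was highest at 2811 CPM per kb, followed by RPL8 at 1873 and RPL35, at the peptide exit of the large subunit, at 1834. The median over the 77 genes was 583 CPM per kb, with 522 for the large and 638 for the small subunit, and 55 members were within 2-fold of the median. The lowest 3 were RPS10, which sits on the head of the small subunit, at 9.77 CPM per kb, RPL22 at 22.7 and RPL36A at 24.1.

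The highest level was 288 times the lowest, but part of that range lay in members that overlap other genes on the same strand. RPS10 and RPL36A share 84.0% and 77.6% of their transcript, on the same strand, with the readthrough genes RPS10-NUDT3 and RPL36A-HNRNPH2, and both readthrough genes had 0 counts in the 20 libraries. RPL17 (91.0%), RPL26 (65.3%) and RPS15A (41.5%) also overlap another gene by more than 30%. Without the 6 members with such an overlap the highest level was 124 times the lowest. Processed pseudogenes of a member held further reads, amounting to 174.6% of the counts of RPS10, 86.15% of RPL36A, 63.24% of RPL17, 60.18% of RPL23A, 47.5% of RPL26 and 34.74% of RPL22. Levels of these members are therefore uncertain, and the true level of RPS10 cannot be read from its count. In RPS23, of the decoding centre, a long annotated transcript of 3437 bases also lowered the level per kb.

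**Figure D1:**
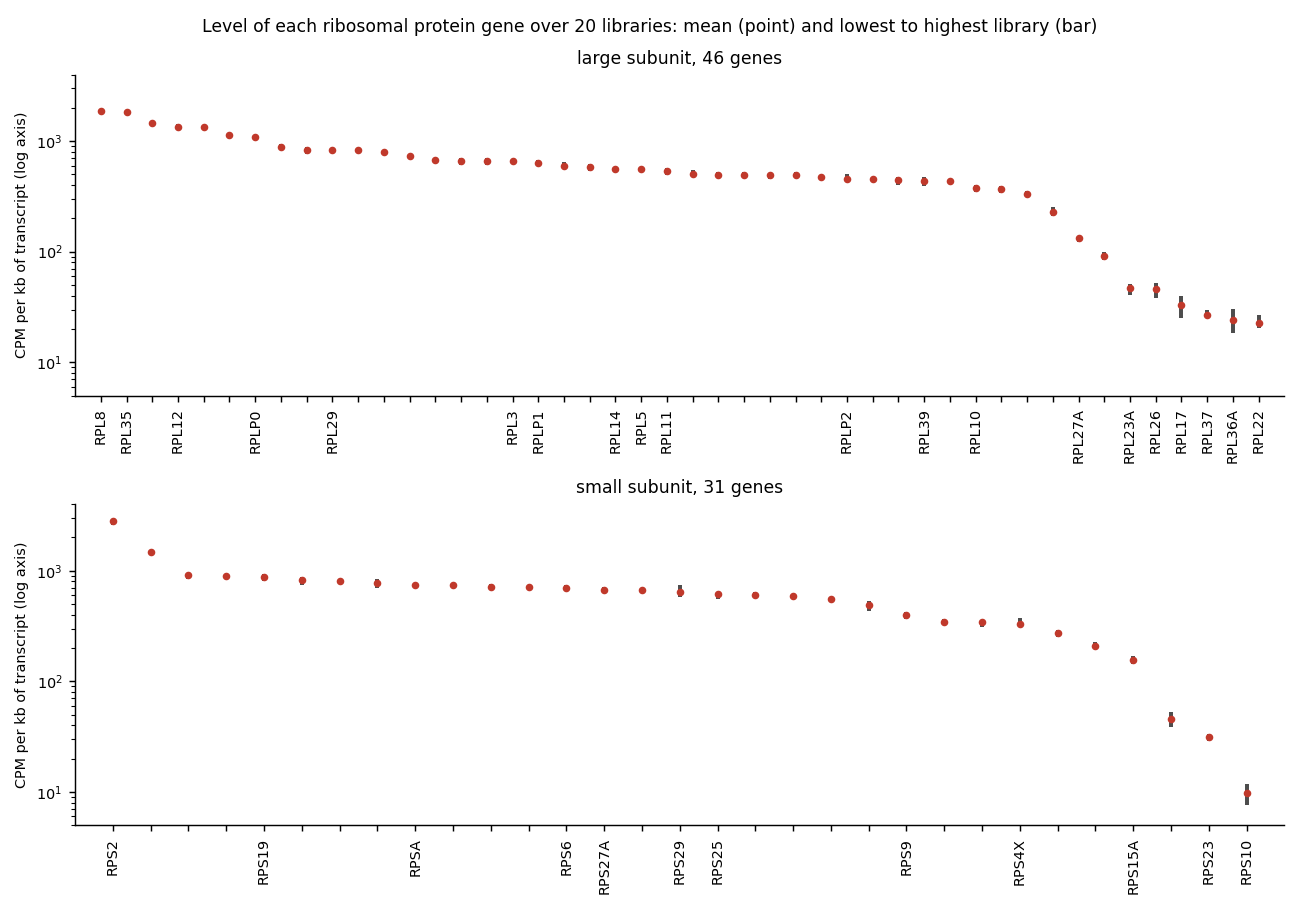
Level of each of the 77 ribosomal protein genes in CPM per kilobase of transcript (log axis), with points for the mean of the 20 libraries and bars from the lowest to the highest of them. RPS2 stands highest and RPS10 lowest, and the bar of most genes is short beside the range between genes. Genes named in the text are labelled.

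The order of the genes was the same in every group to within a few places. Ranked by group mean, 69 of the 77 moved by at most 2 places between any groups, and the largest move was 3 places. The members were also measured tightly. Their median coefficient of variation between libraries of a group was 2.97%, against 13.2% over all genes tested. Of the members, 72 had over 1000 counts in their lowest library, and no comparison with other genes of like level was made.

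Taken as a sum, ribosomal protein messages held 3.95 ± 0.06% of counts in control (SD, n = 5), 3.86 ± 0.09% in SPARC 0.05, 3.94 ± 0.06% in SPARC 0.5 and 3.82 ± 0.03% in SPARC 5. The SPARC 5 libraries lay between 3.7829% and 3.8591% and the control libraries between 3.8598% and 4.0295%, so these groups met at the edge without overlapping. After TMM scaling the same sums were 39013 ± 800 CPM in control and 39021 ± 483.5 CPM in SPARC 5, and these groups overlapped. The scaled sum is the share divided by the TMM factor, which averaged 1.01 in control and 0.981 in SPARC 5. In bulk RNA a smaller share cannot be told apart from more RNA of other genes, nor can fewer cells be told apart from less RNA per cell.

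The balance of the subunits did not move with dose beyond the spread between libraries. Summed large-subunit CPM over summed small-subunit CPM was 1.58 ± 0.01 in control, 1.58 ± 0.01 in SPARC 0.05, 1.58 ± 0.01 in SPARC 0.5 and 1.57 ± 0.003 in SPARC 5.

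**Figure D2:**
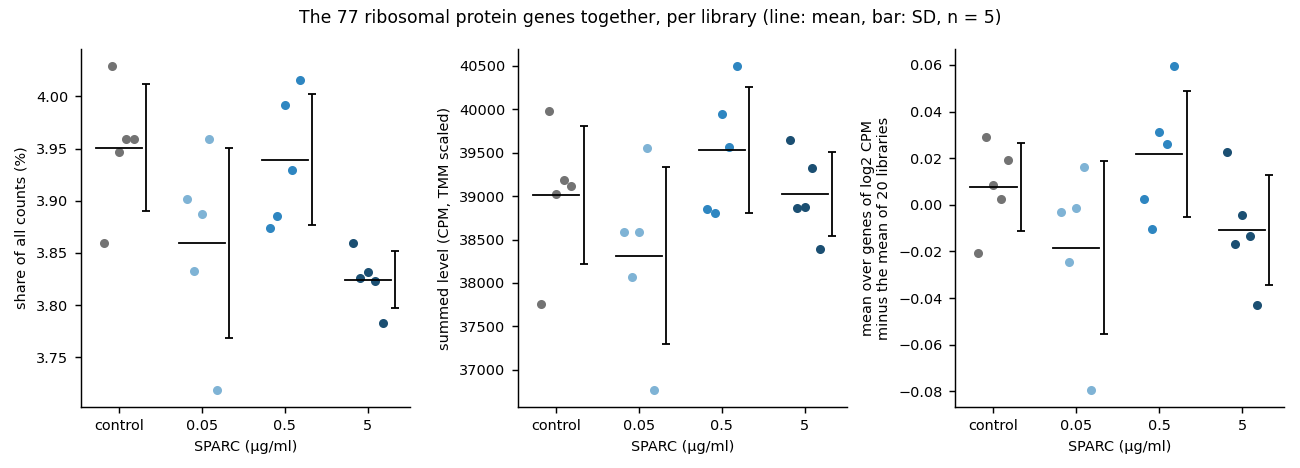
Ribosomal protein genes summed or averaged in each of the 20 libraries, by group, with group means and SD. SPARC 0.05 library 5 is the lowest (mean deviation −0.0796 on the log2 scale) and SPARC 0.5 library 5 the highest (0.0597).

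Single libraries stood further apart than group means. SPARC 0.05 library 5 had 5 of the 77 members above their own 20-library mean, and SPARC 0.5 library 5 had 75. Where a comparison uses either of these libraries, the number of members called is also given without both.

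Against control, SPARC 5 changed few ribosomal protein genes: none rose, and 3 of 77 fell, all of the large subunit (edgeR quasi-likelihood test, Benjamini-Hochberg adjusted p under 0.05). Over all genes tested 11.6% passed in this comparison, 7.04% higher and 4.58% lower. The 3 were RPL22, RPL37 and RPL36A. At an unadjusted p under 0.05, 3 members were higher and 10 lower, against 12.2% and 10.2% of all genes. The median over the 77 was −0.0076 on the log2 scale, against −0.0069 over all genes tested, and 32 of 77 (41.6%) were above 0, against 48.4% of all genes.

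RPL22 (ENSG00000116251, chromosome 1, 6185020 to 6209389) is a large-subunit RNA-binding protein with a paralog, RPL22L1, that can take its place on the ribosome. Its CPM were 50.1, 45.6, 47.6, 50.02 and 55.5 in the control libraries, 49.6, 48.9, 49.0, 43.4 and 45.4 in SPARC 0.05, 47.0, 46.0, 45.9, 48.2 and 52.2 in SPARC 0.5, and 45.2, 42.5, 44.2, 42.5 and 44.2 in SPARC 5. Every SPARC 5 library lay below every control and every SPARC 0.5 library, though the highest SPARC 5 value was close to the lowest control value. Groups did not overlap in this way in 7.68% of all genes for SPARC 5 against control and in 4.8% for SPARC 5 against SPARC 0.5. RPL22 was the 1 member of 77 in each, and it did not pass against SPARC 0.5. Against control, RPL22 fell by 0.19 on the log2 scale (SE 0.05, adjusted p = 0.0024), a change of −12.1% with a 95% interval of −17.5% to −6.28%. This call held in all 30 alternatives, among them other scalings, the sum of RPL22 with its pseudogenes and every library left out, with adjusted p between 8.17e-05 and 0.0337 and log2 values between −0.23 and −0.13. RPL22L1 was at 44.5 ± 3.85 CPM in control and 44.4 ± 3.57 CPM in SPARC 5 (SD, n = 5), a log2 difference of 0.0013 (adjusted p = 0.992).

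RPL37 (ENSG00000145592, chromosome 5, 40825262 to 40835335), a zinc-finger protein of the large subunit that can also bind MDM2, is counted at a higher level. Its CPM were 228, 206, 217, 203 and 209 in control, 210, 208, 214, 212 and 191 in SPARC 0.05, 209, 201, 213, 213 and 207 in SPARC 0.5, and 209, 195, 205, 193 and 194 in SPARC 5. The SPARC 5 and control groups overlapped, with 3 SPARC 5 libraries below the whole control range and 2 within it. RPL37 fell by 0.10 at SPARC 5 (SE 0.03, adjusted p = 0.015), a change of −6.49% with an interval of −10.1% to −2.69%. The call did not pass without control library 1, the highest of them (adjusted p = 0.102), or without SPARC 5 library 4 (0.0671), and held in the other 28 of 30 alternatives.

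RPL36A (ENSG00000241343, chromosome X, 101390824 to 101396154), whose protein lies near the site from which spent transfer RNA leaves, had only 283 to 546 counts per library. Its CPM were 10.6, 9.33, 12.0, 11.5 and 10.1 in control, 9.37, 12.5, 11.2, 10.3 and 11.8 in SPARC 0.05, 11.5, 9.36, 8.49, 11.7 and 13.1 in SPARC 0.5, and 8.77, 9.20, 9.70, 8.37 and 7.85 in SPARC 5. One SPARC 5 library lay within the control range and 4 lay below it. RPL36A fell by 0.29 at SPARC 5 (SE 0.10, adjusted p = 0.0348), a change of −18.0% with an interval of −28.2% to −6.47%. The call was lost in 7 of 30 alternatives: with offsets for GC content and length (adjusted p = 0.0962), with pseudogene counts added (0.0977), and without control library 3 (0.138) or 4 (0.0988) or SPARC 5 library 1 (0.0592), 4 (0.0852) or 5 (0.109). Its paralog RPL36AL was at 78.7 ± 6.00 CPM in control and 83.4 ± 5.77 CPM in SPARC 5 (log2 0.08, adjusted p = 0.221).

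**Figure D3:**
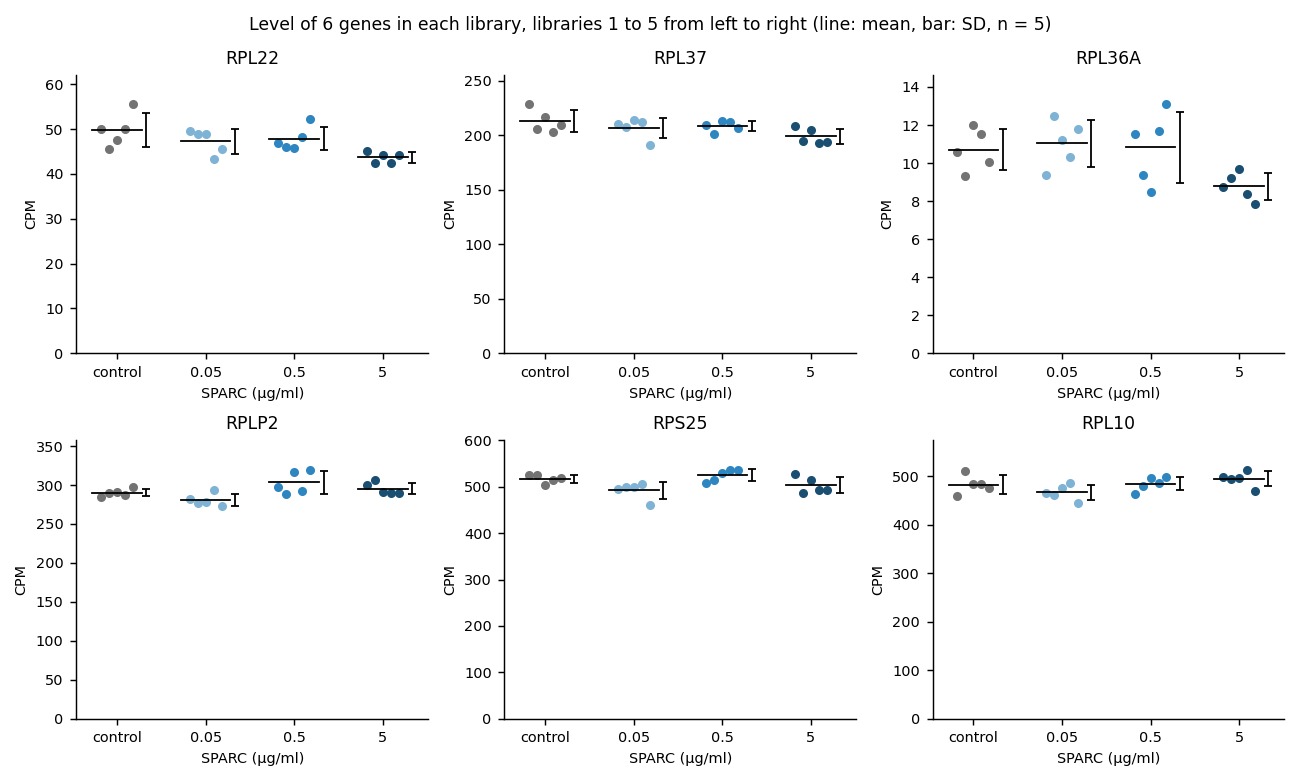
CPM of RPL22, RPL37, RPL36A, RPLP2, RPS25 and RPL10 in each of the 20 libraries, by group, with group means and SD on axes that start at 0. The 5 SPARC 5 libraries of RPL22 lie below the 5 control libraries, and the groups overlap for RPL37 and RPL36A.

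Other features of the libraries also differed between control and SPARC 5, and their part in the 3 calls was not tested. The goblet cell marker list (4 genes) summed to 570 to 659 CPM in control and 1060 to 1100 CPM in SPARC 5. Nearly all of it was KRT7 (569 to 1100 CPM over the 20 libraries), while the defining markers MUC5AC and SPDEF had 0 to 6 and 1 to 14 counts. The correlation of a library's log2 CPM with gene GC content, relative to the other libraries, averaged 0.127 in control. It averaged −0.0362 in SPARC 0.05, −0.0583 in SPARC 0.5 and −0.0396 in SPARC 5. The control mean was above those of all 3 doses, but single libraries overlapped. Control library 5 was at −0.0156 and SPARC 5 library 2 at 0.1066. The same correlation with gene length averaged −0.0844 in control, 0.0001 in SPARC 0.05, 0.00786 in SPARC 0.5 and 0.0702 in SPARC 5. Members had a median GC content of 49.5% and a median length of 1004 bases, against 48.5% and 2172 bases over the genes tested with both values. Across the 77 members, which share libraries and scaling, the log2 difference at SPARC 5 had r = 0.068 with GC content and 0.043 with the logarithm of length.

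Other scalings gave other numbers of members that passed at SPARC 5. With library sizes only, 0 members rose and 25 fell, and 5 of 77 were above 0. Under that scaling 0 mitochondrial ribosomal protein genes rose and 21 of 77 fell, against 0 and 8 in the main fit. Of 49 ribosome biogenesis factors 0 rose and 19 fell, against 1 and 8. The shift was thus not particular to the members, and shares of all genes under these scalings are not given here. With offsets for GC content and length, 13 members rose and 3 fell (RPL22, RPL37 and RPL14), and 53 of 77 were above 0. With DESeq2, 0 rose and 4 fell, the fourth being RPL26. The count was 1 without SPARC 5 library 4, 6 without SPARC 5 library 1, and 5 without SPARC 5 library 2, without SPARC 0.05 library 5, or without both library 5s.

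For most members the data held any change at SPARC 5 to a narrow interval. The 95% interval lay within 0.2 log2 units of 0 (a fall of 12.9% to a rise of 14.9%) for 71 of 77. Among the other 6 were RPL22 and the members RPL36A, RPL26, RPL17 and RPS10, which had fewer counts than RPL22. RPL26, which can bind MDM2, was at 25.3 ± 1.36 CPM in control and 22.5 ± 1.92 CPM in SPARC 5 (log2 −0.17, adjusted p = 0.0513). RPL17, of the peptide exit tunnel, had a log2 difference of −0.16 (adjusted p = 0.107).

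**Figure D4:**
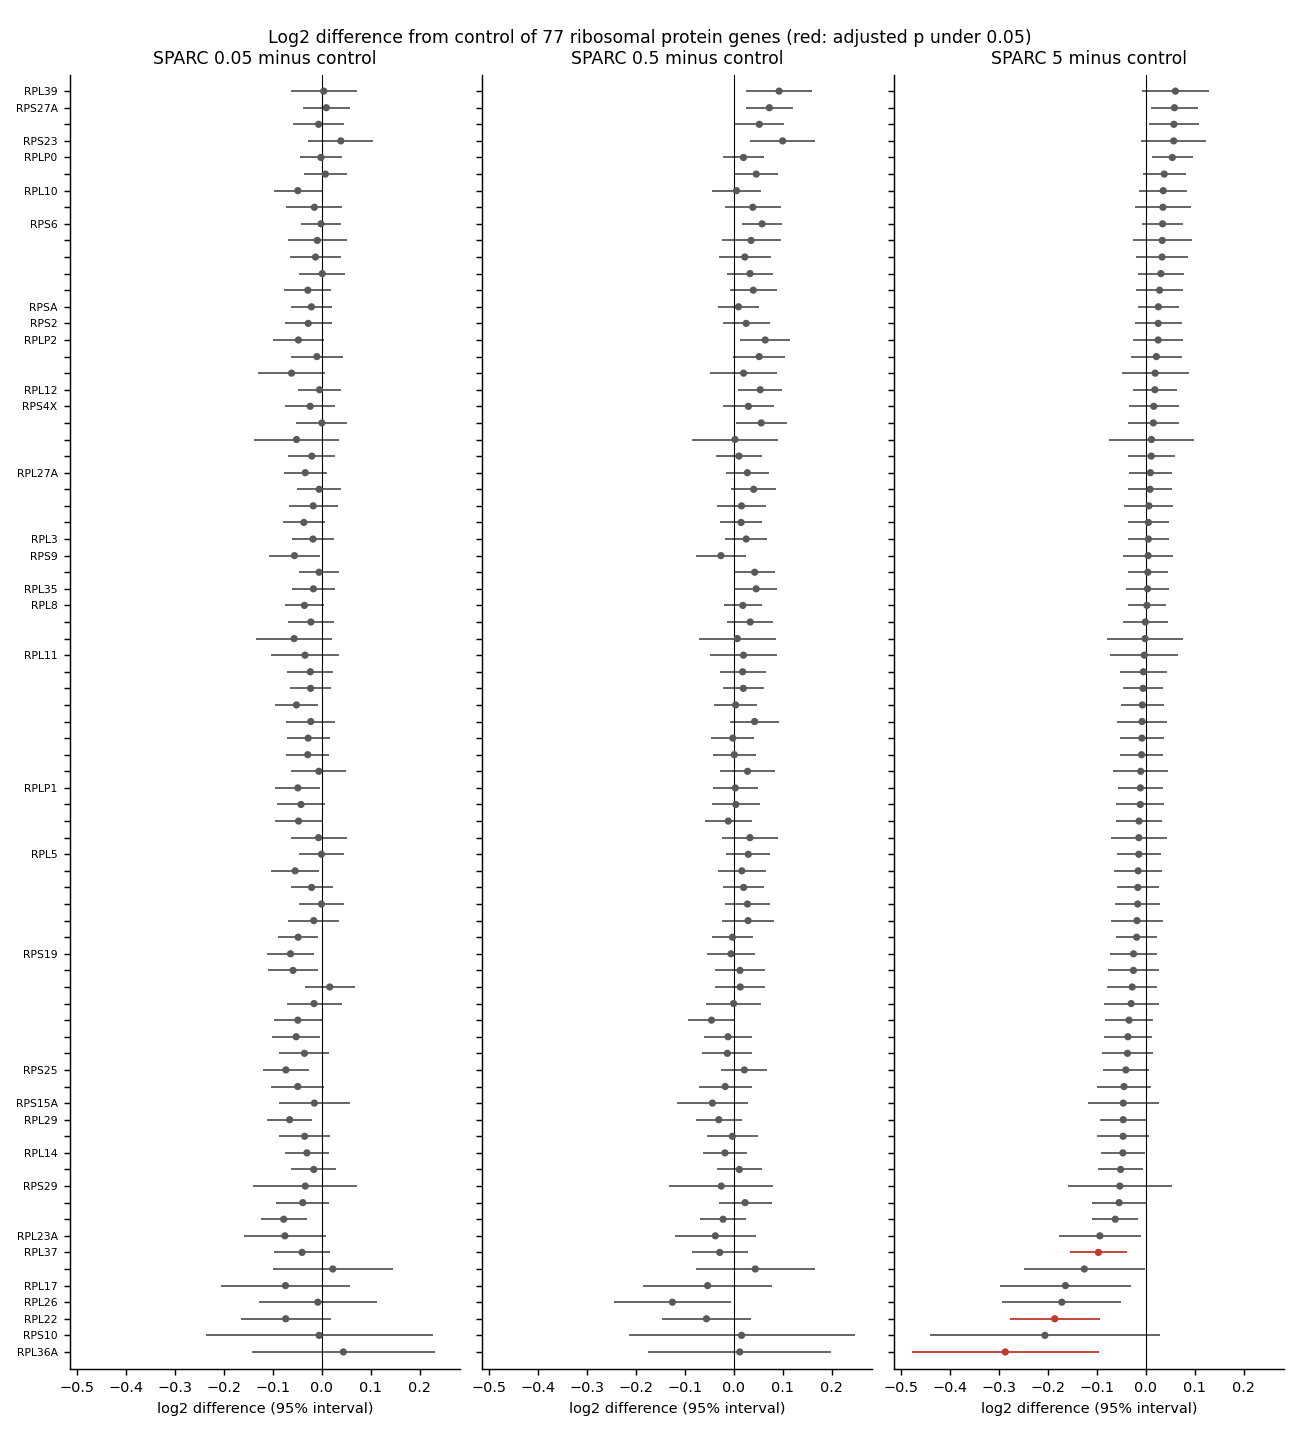
Log2 difference of each of the 77 genes against control at the 3 doses, with 95% intervals, and genes that passed marked. At SPARC 5, RPL36A (−0.29), RPL22 (−0.19) and RPL37 (−0.10) passed, and most other intervals lie within 0.2 of 0. Genes named in the text are labelled.

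None of the 31 small-subunit members passed at SPARC 5 (edgeR), and DESeq2 also called none. With library sizes only 10 of them fell, and with offsets for GC content and length 5 rose. At an unadjusted p under 0.05, 1 was higher and 2 were lower. RPS27A, made as a fusion with ubiquitin, was at 464 ± 16.0 CPM in control and 483 ± 9.89 CPM in SPARC 5 (log2 0.06, adjusted p = 0.112). RPS10 was at 5.93 ± 0.65 CPM in control and 5.13 ± 0.60 CPM in SPARC 5, with an interval of −26.3% to 2.0% (adjusted p = 0.307).

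The 3 proteins of the ribosomal stalk, which brings elongation factors to the large subunit, did not pass at SPARC 5 with edgeR or DESeq2. With the offsets RPLP0 and RPLP2 rose, and the median of the 3 went from 0.03 to 0.10 on the log2 scale. RPLP0, the base of the stalk, was at 1307 ± 47.4 CPM in control and 1357 ± 20.2 CPM in SPARC 5 (log2 0.05, adjusted p = 0.0843), the 1 of the 3 with an unadjusted p under 0.05. RPLP2, one of the acidic stalk proteins, had a log2 difference of 0.03 (adjusted p = 0.64).

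The 12 members listed as binding MDM2 had no edgeR call at SPARC 5. Among them were RPL5 and RPL11, which hold MDM2 together with 5S ribosomal RNA. At an unadjusted p under 0.05, 1 of the 12 was higher and 1 lower, and DESeq2 called 1 lower, RPL26. With library sizes only 4 of the 12 fell, and with the offsets 2 rose. RPL5 had a log2 difference of −0.01 (interval −4.04% to 2.17%) and RPL11 of −0.003 (interval −4.87% to 4.68%). RPL37, which can also bind MDM2 and fell at SPARC 5, stands outside this list as it was drawn up.

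The 18 members mutated in Diamond-Blackfan anemia, an inherited failure of red cell production, likewise had no edgeR call at SPARC 5. Of these, 1 was higher and 3 were lower at an unadjusted p under 0.05, and DESeq2 called RPL26 lower. In edgeR, 9 of the 18 fell with library sizes only, 2 rose with the offsets, and 1 fell with DESeq2 size factors, with no filter or without both library 5s. RPS19, the gene most often mutated in it, was at 468 ± 18.0 CPM in control and 460 ± 9.75 CPM in SPARC 5 (interval −4.95% to 1.62%).

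At SPARC 0.5, no member passed against control with edgeR or DESeq2, where 2.25% of all genes tested did, 1.36% higher and 0.894% lower. At an unadjusted p under 0.05, 11 members were higher and 1 lower, against 7.41% and 6.4% of all genes. The median of the 77 was 0.0183 on the log2 scale, against 0.00 over all genes, and 56 of 77 were above 0. Without both library 5s no member passed, the median was 0.0096, and 50 were above 0. With library sizes only, 29 of 77 were above 0 and the median was −0.01, so the direction of the whole group turned with the scaling. With offsets for GC content and length, 68 were above 0 and 7 rose: RPLP0, RPL3, RPL35, RPL8, RPLP2, RPL12 and RPL39. No member had groups that did not overlap, against 3.1% of all genes.

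The 3 members with the smallest p at SPARC 0.5 were all of the small subunit. RPS23 was at 104, 102, 103, 106 and 103 CPM in control and 116, 99.2, 110, 115 and 115 CPM in SPARC 0.5 (log2 0.10, SE 0.03, adjusted p = 0.0934). SPARC 0.5 library 2 lay below every control library, and the other 4 lay above them. RPS27A was at 488 ± 17.5 CPM (log2 0.07, adjusted p = 0.0934). RPS6, the substrate of S6 kinase downstream of mTOR, was at 961 ± 18.5 CPM in control and 999.9 ± 22.9 CPM in SPARC 0.5 (log2 0.06, adjusted p = 0.131). Leaving out control library 5 gave 2 calls, RPS27A and RPL39, and leaving out SPARC 0.5 library 2 gave 2, RPS27A and RPS23.

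At SPARC 0.05, no member passed against control in edgeR, in DESeq2 or in any alternative, where edgeR called 0.266% of all genes, 0.187% higher and 0.0785% lower. At an unadjusted p under 0.05, 0 members were higher and 11 lower, against 4.7% and 4.44% of all genes. Of the 77, 9 were above 0, and the median was −0.0231, against 0.00 over all genes. Without both library 5s, 29 were above 0 and the median was −0.0114. RPS9, a small-subunit protein at the messenger RNA entry, was the 1 member whose groups did not overlap (1.74% of all genes), at 284.05 to 291.62 CPM in control and 258.38 to 283.34 CPM in SPARC 0.05.

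At SPARC 0.05, RPS25 had a log2 difference of −0.07 (adjusted p = 0.199) and RPL29 of −0.07 (adjusted p = 0.284).

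Between doses, 32 of 77 members were higher in SPARC 0.5 than in SPARC 0.05 at an unadjusted p under 0.05 and 0 were lower, against 3.99% and 3.38% of all genes. Of the 77, 73 were above 0 with a median of 0.04, against 11470 of 22938 above 0 and a median of 0.00 over all genes. RPLP2 passed, where 0.179% of all genes did, 0.157% higher and 0.0218% lower. RPLP2 (ENSG00000177600, chromosome 11, 809647 to 812880) was at 281, 276, 279, 294 and 273 CPM in SPARC 0.05 and 298, 289, 317, 292 and 320 CPM in SPARC 0.5. These groups overlapped through SPARC 0.05 library 4. RPLP2 rose by 0.11 (SE 0.03, adjusted p = 0.0357), an increase of 8.07% with an interval of 4.28% to 12.0%.

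RPS25 (ENSG00000118181, chromosome 11, 119015712 to 119018691), a small-subunit protein that several viral messages need for internal initiation, was at 496, 499, 500, 505 and 461 CPM in SPARC 0.05 and 509, 515, 530, 536 and 537 CPM in SPARC 0.5. Its groups did not overlap, nor did those of RPL27A (602.39 to 645.54 against 650.19 to 675.14 CPM), against 1.66% of all genes. RPS25 had a log2 difference of 0.09 (adjusted p = 0.0632), and DESeq2 called it. Both library 5s took part in this comparison. Without both, 62 of 77 were above 0 with a median of 0.02, no member passed, and RPLP2 had an adjusted p of 0.587. For RPLP2 it was 0.163 without SPARC 0.05 library 5, 0.265 without SPARC 0.5 library 5, 0.171 without SPARC 0.5 library 3, and 0.0824, 0.113 and 0.0978 without SPARC 0.05 library 1, 2 or 3.

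Against SPARC 0.05, SPARC 5 had 1 rise and 1 fall among the members, where 8.28% of all genes passed, 5.54% higher and 2.74% lower, and no member had groups that did not overlap (7.18% of all genes). RPL10 (ENSG00000147403, chromosome X, 154389955 to 154409168), whose loading completes the large subunit near the site where peptide bonds form, was at 465, 461, 477, 487 and 445 CPM in SPARC 0.05 and 499, 495, 497, 513 and 470 CPM in SPARC 5. One SPARC 5 library lay within the SPARC 0.05 range. RPL10 rose by 0.08 (SE 0.02, adjusted p = 0.0173). The call was lost with library sizes only (0.273), with no filter (0.0816), without SPARC 0.05 library 2 (0.0647) or 5 (0.142), without SPARC 5 library 1 (0.0779), 2 (0.0526) or 4 (0.0907), and without both library 5s (0.128), where RPL36A was the 1 member called. In this comparison 6 members passed without SPARC 0.05 library 4, and 0 without SPARC 0.05 library 2.

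RPL36A fell against SPARC 0.05 by 0.33 (SE 0.10, adjusted p = 0.014) and against SPARC 0.5 by 0.30 (SE 0.10, adjusted p = 0.0474), where 4.8% of all genes passed, 3.31% higher and 1.49% lower. These comparisons share the SPARC 5 libraries with the one against control. The fall against SPARC 0.05 was lost without SPARC 0.05 library 2 (0.0735) or SPARC 5 library 5 (0.0535), and with pseudogene counts added (0.306). The fall against SPARC 0.5 was lost in 12 of 30 alternatives. It was lost with pseudogene counts added (0.18), with the offsets (0.0774), with a block for library number (0.0573) and without both library 5s (0.273). It was also lost without SPARC 0.5 library 1 (0.119), 4 (0.152) or 5 (0.282), without SPARC 5 library 1 (0.0797), 4 (0.114) or 5 (0.141), and without control library 4 (0.0523) or SPARC 0.05 library 3 (0.0509).

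Over the 4 groups at once, 5 members differed, among them RPLP2 (adjusted p = 0.00718), RPS25 (0.00894), RPL22 (0.0179) and RPL36A (0.0295). The same test called 11.0% of all genes. RPL36A was lost in 7 of 29 alternatives, among them the removal of SPARC 0.05 library 2 (0.055) or of SPARC 5 library 1 (0.0666), 4 (0.108) or 5 (0.136). RPS25 was lost without SPARC 0.05 library 5 (0.0575), RPLP2 without SPARC 0.5 library 3 (0.0501) or 5 (0.05), and RPL22 without control library 5 (0.0741), without SPARC 5 library 4 (0.0714) or with pseudogene counts added (0.127). The count was 2 without SPARC 5 library 4 and 3 without SPARC 0.5 library 3 or 5. Without both library 5s, 2 members passed, RPL22 and RPL37.

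Within groups the members moved together from library to library. After each group's mean was subtracted, pairs of members had a median r of 0.413 over the 20 libraries (interquartile range 0.201 to 0.57, 2926 pairs), and 88.4% of pairs were above 0. Pairs of mitochondrial ribosomal protein genes had a median of 0.0771, and a member with a mitochondrial one 0.167. All pairs share the same libraries, depth and scaling, so the values describe these libraries. RPLP1, the partner of RPLP2 in the stalk, and RPL12, at the base of the stalk, had the highest median r with the other members, at 0.609 and 0.594. Among the 5 lowest were RPS10 at −0.325, RPL36A at −0.108, RPL17 at 0.016 and RPL22 at 0.097. RPL22 and RPL36A, which fell at SPARC 5, were thus among the 5 members that followed the others least.

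**Figure D5:**
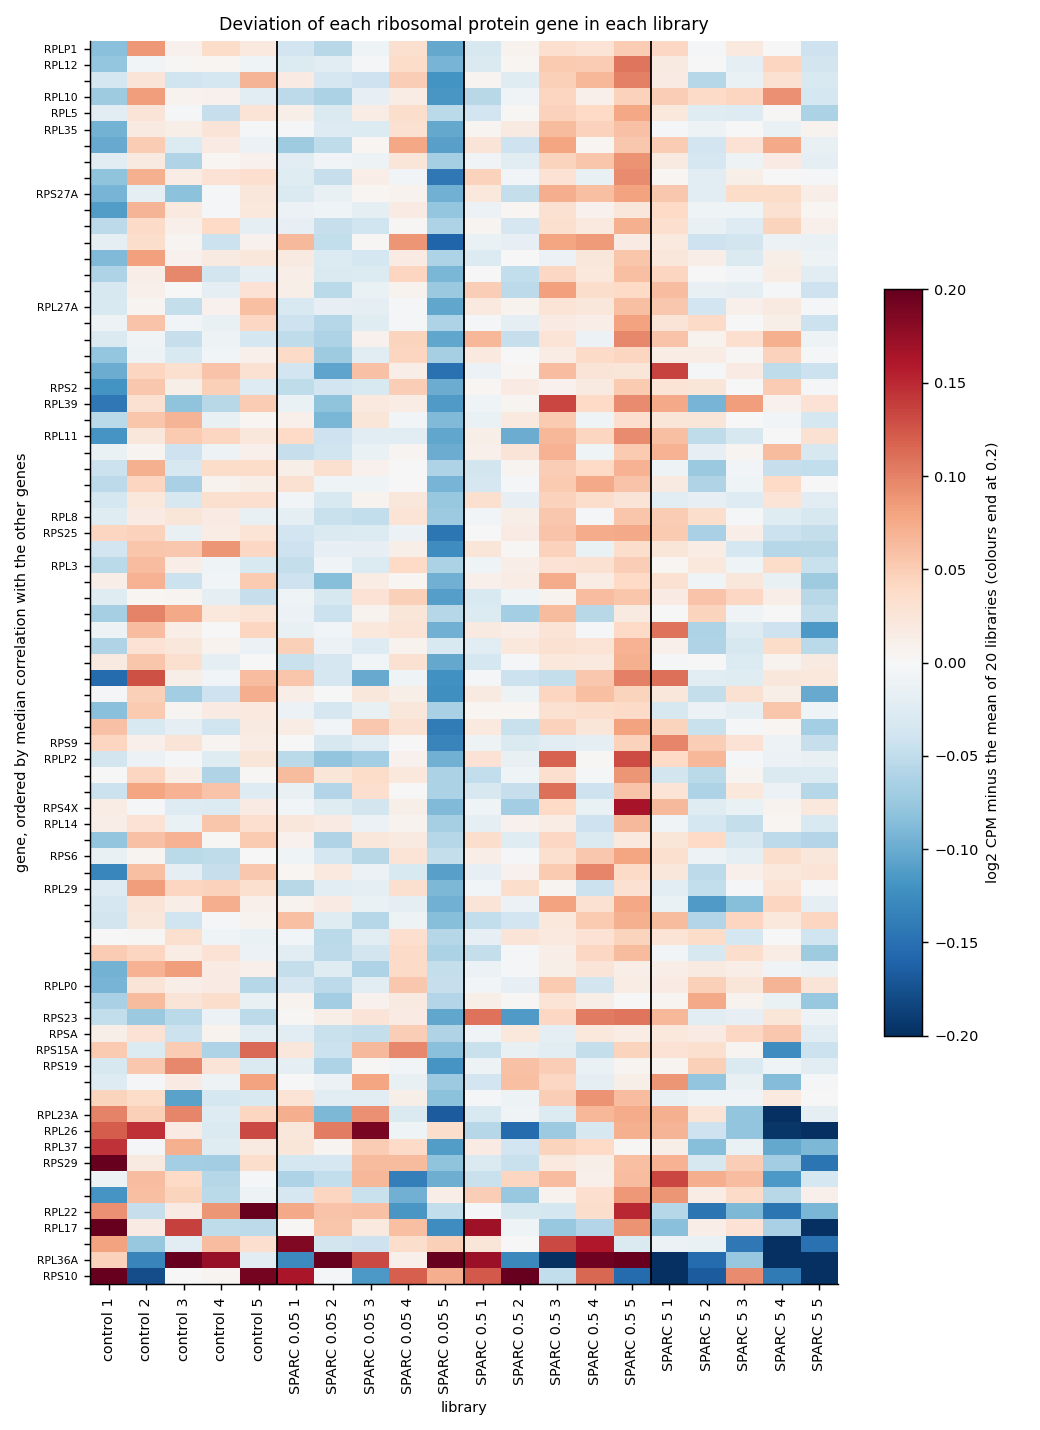
Log2 CPM of the 77 genes in the 20 libraries minus each gene's mean, with genes ordered by their median correlation with the other members and colours ending at 0.2. SPARC 0.05 library 5 is low and SPARC 0.5 library 5 high across most genes, and RPS10, RPL36A, RPL17 and RPL22 are among the genes that follow the others least. Genes named in the text are labelled.

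Genes that make, assemble or use ribosomes gave the background for the members. At SPARC 5 against control 7.04% of all genes tested rose and 4.58% fell, and the counts of each list stand beside these shares. FAU and RACK1, whose proteins also sit on the small subunit, had no edgeR or DESeq2 call at SPARC 5, and neither had an unadjusted p under 0.05. RACK1, the small-subunit scaffold, was at 1011 ± 5.94 CPM in control and 1021 ± 18.9 CPM in SPARC 5. The 7 ribosomal protein paralogs tested had no call at SPARC 5 against control by either tool, with 1 higher and 1 lower at an unadjusted p under 0.05, and 1 fell in edgeR with library sizes only or with the offsets. Against SPARC 0.05, RPL7L1 fell at SPARC 5 by 0.08 (adjusted p = 0.0289).

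Of 15 hosts of small nucleolar RNAs, whose spliced transcripts also tend to begin with a TOP run, 0 rose and 8 fell at SPARC 5. Their median was −0.09 on the log2 scale, and between 7 and 10 fell under every scaling and filter run. SNHG17 went from 115 ± 4.68 to 92.8 ± 3.80 CPM (log2 −0.31, SE 0.03, adjusted p = 3.19e-13), SNHG3 from 141 ± 2.47 to 122 ± 8.45 CPM (−0.22, adjusted p = 7.19e-08) and SNHG7 from 101 ± 2.16 to 87.5 ± 2.18 CPM (−0.21, adjusted p = 7.28e-07). At SPARC 0.5, 2 fell, SNHG17 (−0.21) and SNHG3 (−0.16), and at SPARC 0.05 none did, with 1 lower at an unadjusted p under 0.05. The difference between this list and the members was not tested.

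Among 17 elongation factors and other TOP messages, 0 rose and 2 fell at SPARC 5. EEF1D, a subunit of the exchange factor for elongation factor 1, went from 196 ± 4.17 CPM in control to 179 ± 5.20 at SPARC 0.05, 171 ± 2.94 at SPARC 0.5 and 164 ± 6.00 at SPARC 5. It fell at each dose, by 0.13 (adjusted p = 0.00812), 0.20 (4.38e-07) and 0.26 (3.95e-13), against shared control libraries. EEF2, the translocation factor, fell by 0.06 at SPARC 5 (adjusted p = 0.0119), and did not pass with offsets for GC content and length (0.523).

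Of 49 ribosome biogenesis factors, 1 rose and 8 fell at SPARC 5, with a median of −0.03. NOP56, a core protein of the RNA methylation machinery, fell by 0.12 (adjusted p = 0.00036) and NAT10, an RNA acetyltransferase, by 0.11 (0.000856), and both passed in all 10 alternatives run on them. BOP1, a large-subunit assembly factor, fell by 0.10 (0.00263) and did not pass with offsets for GC content and length (0.184). None of 12 RNA polymerase I and rDNA factors passed with edgeR or DESeq2, with 0 higher and 2 lower at an unadjusted p under 0.05. Of 16 chaperones and importins of ribosomal proteins, TNPO1 rose by 0.10 (adjusted p = 0.005; 0.221 with library sizes only) and RPS19BP1 fell by 0.11 (0.0319; 0.635 with the offsets).

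Of 28 initiation factors, 1 rose and 1 fell, not above the shares of all genes (7.04% and 4.58%). EIF4G2 rose by 0.06 (adjusted p = 0.0285, and 0.674 with library sizes only). EIF5A fell by 0.07 (0.0223, and 0.684 with the offsets). Among 33 genes of mTOR signalling and TOP control, 0 rose and 4 fell. The scaffold RPTOR fell by 0.14 (adjusted p = 0.000335), its partner MLST8 by 0.13 (0.00302; 0.127 with the offsets), and the mTOR inhibitor AKT1S1 by 0.13 (0.00448). The list's median was 0.01 and turned negative with library sizes only (−0.03) and with the offsets (−0.02).

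Of 14 genes of the ribosomal stress list, 3 rose. CDKN1A, a cell cycle inhibitor, went from 10.8 ± 0.93 to 16.0 ± 1.03 CPM (log2 0.56, adjusted p = 1.33e-07), and ZMAT3 from 28.8 ± 2.60 to 37.7 ± 2.38 CPM (0.39, adjusted p = 1.77e-08). The 77 mitochondrial ribosomal protein genes tested, whose products form a separate ribosome, had 0 rises and 8 falls with a median of −0.05. MRPS25 fell by 0.17 (adjusted p = 0.000931). MRPS34 (0.00446) and MRPL12 (0.00603) fell by 0.14 and 0.20, and did not pass with the offsets (0.248 and 0.107), under which 2 fell and 1 rose.

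The authors' deposited tables of comparisons hold all 77 members among 16045 genes. In the authors' deposited table for SPARC 5, 3 members passed, all lower, and 16.3% of all genes did. Among them were RPL22 (log2 −0.18, adjusted p = 0.00601) and RPL37 (−0.09, adjusted p = 0.0263) in the authors' deposited table, where RPL36A had −0.29 with an adjusted p of 0.0569. In the authors' deposited table for SPARC 0.5, RPS6 passed as higher (log2 0.06, adjusted p = 0.0495), where 3.42% of all genes passed. In the authors' deposited table for SPARC 0.05 no member passed, and 0.686% of all genes did. RPL22 and RPL37 were thus called lower at SPARC 5 in both the deposited table and the fit here.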

How the data were processed

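The deposited table gives raw read counts per gene for 20 libraries. Per the submitters' processing notes, STAR 2.7.9a, featureCounts 2.0.3, Salmon 1.5.2, edgeR and limma were used with GRCh38; the sources used here do not give the annotation release or the strand setting. The authors' deposited comparison tables give log2 differences and adjusted p-values; their score columns (moderated t, log odds and linear fold), made by the authors with limma-style columns per the file headers, were not used. Entries that repeat a gene identifier (368 entries of 168 identifiers, 0.278 to 0.296% of counts, no member) were removed. Positions, lengths and GC content of genes were read from GENCODE release 29.

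edgeR 4.0.16 in R 4.3.3 fitted all 4 groups in 1 model (TMM factors, filterByExpr with a minimum count of 10, robust quasi-likelihood F-tests), with Benjamini-Hochberg adjustment over all 22938 genes and a threshold of 0.05. Alternatives, with DESeq2 1.42.0 among them, are in the closing section, and the procedure was tested on simulated data. Correlations and deviations used log2 CPM with a prior count of 2. Within groups, pairs of libraries differed by 4.09 to 9.55 in chi-square per gene, so none was a duplicate. Named members were those called in any comparison, the 3 of smallest p at each dose, the 3 highest and 3 lowest levels per kb, and examples of a role; of each related list, up to 3 of smallest p at SPARC 5. The members and lists were chosen with earlier results of these data known. Values of some genes are not reported here.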

Additional observations from a re-analysis of the deposited data

Results flagged for a closer look

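In 64 sets of 5 libraries, 1 in each group for every named member and for the members' summed share of counts, 5 held a library far from the other 4 by Dixon's ratio (critical value 0.71); chance gives about 1 in 20, or 5%. RPS25 was at 460.8 CPM in SPARC 0.05 library 5, against 496.1 to 505.1 in the others. RPL37 was at 191.3 CPM in that library, against 207.6 to 214.1, and RPS23 at 99.8 CPM, against 107.4 to 109.2. RPS2 was at 2871 CPM in SPARC 0.5 library 5, against 2774 to 2802. RPL35 was at 781.4 CPM in control library 1, against 832 to 849.2. Of the 5, 4 lie in the pair of libraries that stood apart over the members as a whole.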

How the results depend on the processing

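The number of members called depended mainly on scaling. With library sizes only, 25 were called for SPARC 5 against control, 11 against SPARC 0.5, 7 against SPARC 0.05, 0 for SPARC 0.5 against SPARC 0.05 and 18 over the 4 groups. With GC content and length offsets these counts were 16, 1, 13, 2 and 23, and 7 for SPARC 0.5 against control. Without both library 5s, chosen after seeing the data, they were 5, 0, 1, 0 and 2. With pseudogene counts added, 1 was called for SPARC 5 against SPARC 0.05 and 3 over the 4 groups. With no filter, 1 was called for SPARC 5 against SPARC 0.05 and 0 for SPARC 0.5 against SPARC 0.05. DESeq2 called 2 for SPARC 5 against SPARC 0.5 and 2 for SPARC 0.5 against SPARC 0.05, and a fit of only the 2 groups called 2 for the latter. The cause was not tested for any of these, and the share of all genes that passed under each is not given here. Libraries with the same number correlated at most weakly (30 pairs, r −0.0347 to 0.044, median 0.0153, against −0.00137 for other pairs). Still, 11 of 20 libraries correlated best with their own number, so a weak pairing is possible. A fit with library number as a block gave 0 calls for SPARC 5 against SPARC 0.5 (RPL36A, adjusted p = 0.0573). It gave 2 for SPARC 0.5 against SPARC 0.05 and 7 over the 4 groups. Leaving out each library in turn gave 1 to 6 calls for SPARC 5 against control, 0 to 2 for SPARC 0.5 against control, 0 for SPARC 0.05 against control, 0 to 2 for SPARC 5 against SPARC 0.5, 0 to 6 against SPARC 0.05, 0 to 2 for SPARC 0.5 against SPARC 0.05 and 2 to 7 over the 4 groups. The summed share of counts then ranged over 3.931 to 3.974% in control, 3.835 to 3.895% in SPARC 0.05, 3.920 to 3.955% in SPARC 0.5 and 3.816 to 3.835% in SPARC 5. With pseudogene entries added it was 4.113, 4.015, 4.096 and 3.978%, and with mitochondrially encoded genes left out of the total 4.099, 4.011, 4.090 and 3.962%. Over the named members, 1322 of 1350 recomputed values kept their side of the threshold, 19 newly passed and 9 no longer passed. This tally does not cover every fit above, and a difference that did not pass could change sign between scalings. RPS10 and RPL36A had the fewest counts and the widest intervals.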
